A study of Mus musculus with 6 samples.

Results

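The immediate early genes described here are Fos, Fosb, Jun, Junb, Egr1, Ier2, Atf3, Btg2, Nr4a1 and Myc. They were chosen by name, as genes whose mRNA is made within minutes of a stimulus, with earlier results of these data known, and Fos is also in the study's own list of DEGs from these samples. These 10 genes are among the 55416 genes of the count table, and 9 of them, all but Fosb, were among the 15623 genes with enough counts to be tested. Their mRNA was measured by RNA sequencing in whole tibialis anterior (TA) muscle, a fast muscle of the lower hindlimb, from 3 wild-type (WT) and 3 SELENOW knockout (KO) mice. All 6 mice had aged naturally to 24 months per the labels, both lines were kept on a C57BL/6N background, and the study's methods describe aged mice as male. In the KO line exon 4 of SELENOW, which encodes a small selenocysteine-containing protein abundant in muscle, was deleted by CRISPR-Cas9 in every cell of the animal, so the KO is not limited to muscle fibers. The sources name no injury, exercise or drug for the sequenced mice in particular. The paper put aged mice of both genotypes through grip strength, hanging, and glucose and insulin tolerance tests. It does not say whether the sequenced mice were among them.

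Immediate early genes are switched on without new protein synthesis, by transcription factors that already sit in the cell and are phosphorylated when calcium, cAMP, growth factors or stress reach it. Most of them encode transcription factors, which then switch on a later wave of genes, and their short-lived mRNAs are cleared soon after. In skeletal muscle they are known to be induced by contraction, injury and stretch, and also by the handling and dissection of the tissue, and they are made by fibers as well as by the blood vessel, immune and connective tissue cells between them.

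The libraries held 25351976 to 29111213 counts, and mitochondrially encoded genes took 29.1% to 37.3% of them in WT and 35.4% to 40.3% in KO. Levels are given as CPM, counts scaled to a common library total, with each total adjusted by TMM factors of 0.893 to 1.2, so that 1 count was worth 0.0311 to 0.0408 CPM. The summed level of 6 muscle fiber markers was 72440 to 94080 CPM in WT and 79890 to 93160 CPM in KO. Selenow itself had 244 ± 24.4 CPM in WT and 205 ± 10.3 CPM in KO (SD, n = 3 each), and the KO libraries were all below those of WT. Its log2 fold change was -0.25 (SE 0.14), with an adjusted p of 0.604 in edgeR's quasi-likelihood test. Counts per gene do not show whether exon 4 was present. The paper reports from a Western blot of TA muscle that the SELENOW protein was lost in KO mice. A gene was called differentially expressed (a DEG) by a rule with the study's thresholds, applied here to edgeR. The fold change had to be above 1.5 or below 0.7 and its p, before adjustment, below 0.05. The study applied these thresholds in DESeq2 and reported more genes up than down in KO, so the counts given here are not its own. Of all tested genes 836, or 5.35%, met this rule in either direction. As lower in KO 491, or 3.14%, met it, and 345 met it as higher. At an adjusted p under 0.05 edgeR called 0 genes (0%), 1545 genes had an unadjusted p under 0.05, and DESeq2 called 45 genes at an adjusted p under 0.05. Each genotype was sampled in 3 mice. The p-values set the genotype difference against the spread between these mice, which edgeR draws toward a trend over all tested genes.

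The immediate early genes are compact. The median distance from start to end was 4609.5 bases for the 10 genes and 17816 bases over all tested genes, and 8 of the 10 lay below that median. Jun and Ier2 were counted over a single unbroken exon. Atf3, spread over 47744 bases, and Nr4a1, with 10 separate exon pieces over 20527 bases, were the 2 long ones. The stretch of 250 bases before the start site was examined for 7 of the genes, as given by the RefSeq promoters of GRCm38.p6. The promoters of Fos, Btg2, Nr4a1 and Atf3 are shown because Fos was the gene that met the DEG rule, Btg2 held the full cAMP response element, Nr4a1 held the most copies of its core, and Atf3 varied most between libraries. They lie at chr12:85473640-85473889 on the plus strand for Fos, chr1:134079156-134079405 on the minus strand for Btg2, chr15:101266596-101266845 on the plus strand for Nr4a1 and chr1:191183334-191183583 on the minus strand for Atf3. Each is written 5′ to 3′ along its gene and ends at the base before the start site, and capitals mark matches on either strand to the motifs named after them.
Fos: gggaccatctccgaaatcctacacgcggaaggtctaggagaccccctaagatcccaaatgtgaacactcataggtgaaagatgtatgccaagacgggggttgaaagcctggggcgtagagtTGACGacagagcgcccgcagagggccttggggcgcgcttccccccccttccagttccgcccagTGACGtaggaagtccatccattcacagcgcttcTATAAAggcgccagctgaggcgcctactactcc
Btg2: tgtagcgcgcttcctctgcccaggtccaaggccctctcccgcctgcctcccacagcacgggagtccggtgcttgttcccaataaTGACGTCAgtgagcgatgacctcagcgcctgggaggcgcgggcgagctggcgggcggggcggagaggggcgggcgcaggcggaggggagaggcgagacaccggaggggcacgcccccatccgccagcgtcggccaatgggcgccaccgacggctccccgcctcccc
Nr4a1: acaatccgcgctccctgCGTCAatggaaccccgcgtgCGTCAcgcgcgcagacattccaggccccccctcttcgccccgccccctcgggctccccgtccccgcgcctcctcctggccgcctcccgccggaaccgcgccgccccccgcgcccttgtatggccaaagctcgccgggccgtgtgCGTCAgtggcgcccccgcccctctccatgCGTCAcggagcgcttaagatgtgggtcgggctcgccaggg
Atf3: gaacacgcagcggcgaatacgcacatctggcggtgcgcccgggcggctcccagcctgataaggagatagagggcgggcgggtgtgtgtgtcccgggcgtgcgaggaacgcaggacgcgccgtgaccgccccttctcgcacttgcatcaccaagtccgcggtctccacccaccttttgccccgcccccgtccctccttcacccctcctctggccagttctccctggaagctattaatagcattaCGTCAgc

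The capitals in these promoters mark the cAMP response element TGACGTCA, its core TGACG and the TATA box TATAAA. The cAMP response element is the binding motif of CREB, a factor that calcium and cAMP signals activate. Fos held its core at bases 129 to 125 and 66 to 62 before the start, with a TATA box at bases 33 to 28. Btg2 held the full element at bases 166 to 159, Nr4a1 held 4 cores on the opposite strand, the nearest at bases 40 to 36, and Atf3 held 1 at bases 7 to 3. The core was present in 6 of the 7 promoters, all but that of Jun, and in 17.8% of the 32851 RefSeq promoters of that length. It lies within the full element, and it was added to the search after the sequences had been seen. The full element was in 1 of 7 against 1.55% of all promoters, and the TATA box in 1 of 7 against 12.4%. The AP-1 site TGACTCA (4.46% of all promoters), the EGR site GCGTGGGCG (0.536%) and the CArG box bound by SRF (1.47%) had no match in the 7 windows. This says only that these letters are not in those windows, and nothing about Egr1, Ier2 and Myc, whose promoters were not searched.

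The 10 genes spanned a wide range of mRNA levels in aged TA muscle. Per kilobase of counted length (RPKM, averaged over the 6 libraries), Jun was highest with 18.2 and Nr4a1 followed with 10.3. Atf3 had 3.90, Btg2 2.95 and Junb 2.15 RPKM. Ier2, Myc, Egr1 and Fos had 0.904, 0.898, 0.831 and 0.800 RPKM, and Fosb had 0.0105 RPKM. Neighbours in this order separated completely, with no library of the upper gene at or below a library of the lower gene, between Jun and Nr4a1, Nr4a1 and Atf3, Junb and Ier2, and Fos and Fosb. The other neighbours overlapped, so the order among Atf3, Btg2 and Junb and among Ier2, Myc, Egr1 and Fos is not resolved by these libraries. Genes farther apart in the order also overlapped. The lowest Atf3 library (1.079 RPKM) lay below the highest of Ier2 (1.171), Myc (1.616), Egr1 (1.285) and Fos (1.4). The lowest Junb library (1.577) lay below the highest of Myc. For each gene the spread across libraries is drawn in the plot of levels by library.

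**Figure D1:**
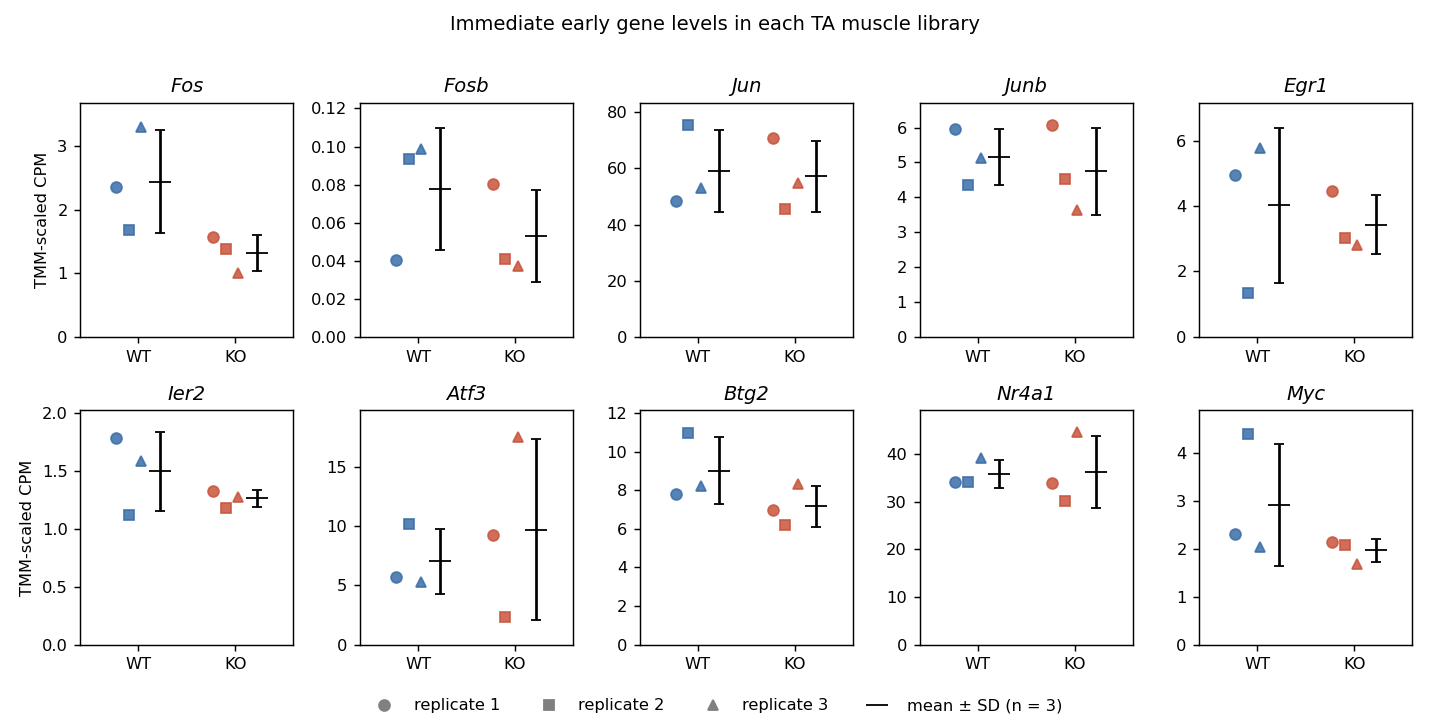
Level of each of the 10 immediate early genes in TMM-scaled CPM (vertical axes, each starting at 0) in the WT (blue) and KO (red) libraries, with the replicate number as the marker shape and black lines for the mean ± SD (n = 3). Fos is the gene whose 3 KO libraries all sit below its 3 WT libraries, and Atf3 in KO spreads from 2.32 to 17.6 CPM.

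Fos, which pairs with JUN proteins to form the AP-1 transcription factor, was lower in KO muscle. Its gene (ENSMUSG00000021250) lies at chr12:85520664-85524047 on the plus strand in GRCm39, the build the submitters' notes name. The 3 WT libraries had 58, 54 and 100 counts, or 2.35, 1.68 and 3.29 CPM. The 3 KO libraries had 39, 34 and 27 counts, or 1.57, 1.39 and 1.01 CPM. The 3 KO libraries all had less Fos than any WT library, although WT replicate 2 and KO replicate 1 lay close together. The mean was 2.44 ± 0.81 CPM in WT and 1.32 ± 0.286 CPM in KO (SD, n = 3 each). The log2 fold change was -0.88 (SE 0.30, 95% interval -1.55 to -0.22), a fold change of 0.541 in edgeR's quasi-likelihood test, with an unadjusted p of 0.0128 and a Benjamini-Hochberg adjusted p of 0.378. Fos thus met the DEG rule but not an adjusted threshold. With WT replicate 3 left out, its log2 fold change was -0.60 and it no longer met the rule, with an unadjusted p of 0.0848 in edgeR. With KO replicate 3 left out, the log2 fold change was -0.72 with an unadjusted p of 0.0566, and the rule was not met either.

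WT replicate 3, the library with the most Fos, also stood apart in markers of other cell types. The summed level of 10 leukocyte markers was 59.5 CPM there, against 26.9 and 17.7 CPM in the other WT libraries and 15.1 to 25.1 CPM in KO. Lyz2 alone made up 37.2 CPM of that sum, against 14.9 and 6.35 CPM in the other WT libraries. Of the 8 tested markers 5 were highest in WT replicate 3. S100a9 was highest in WT replicate 1, Cd68 in KO replicate 1 and Cd3e in KO replicate 3. Of those 10 markers 7 had a lower mean in KO and 3 met the DEG rule: Csf1r, a macrophage receptor (log2 fold change -0.69), and S100a9, a neutrophil gene (-1.64), as lower, and Cd3e, a T cell gene (1.16), as higher. The counts of S100a9 were low, with 26, 21 and 10 in WT and 6, 8 and 2 in KO. Cd79a, a B cell marker, was at 0 in some libraries. The 4 fibroblast markers summed to 207.5 CPM in WT replicate 3, 114.6 and 63.7 CPM in the other WT libraries and 55.9 to 113 CPM in KO, and none of them met the DEG rule. Endothelial markers went the other way. The 5 endothelial markers summed to 53.4 CPM in WT replicate 3, the lowest of the 6 libraries, 86.0 and 70.2 CPM in the other WT libraries and 80.1 to 95.7 CPM in KO. All 5 had a higher mean in KO, 0 met the DEG rule, and Cdh5, an endothelial cadherin, had the smallest p, with a log2 fold change of 0.50 (unadjusted p = 0.0083 and adjusted p = 0.340 in edgeR) and its KO libraries wholly above WT. The 3 smooth muscle markers summed to 19.4 to 26.5 CPM in WT, with 24.0 CPM in WT replicate 3, and 23.7 to 33.8 CPM in KO. Myh11, a smooth muscle myosin, met the DEG rule as higher (0.83), while Tagln had 0.27 and Acta2 had -0.078. The part of these cells in the Fos difference was not tested, and in bulk RNA fewer cells of a type and less RNA per cell cannot be told apart.

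Fosb, the close relative of Fos at chr7:19036621-19043976 on the minus strand (ENSMUSG00000003545), was barely detected. It had 1, 3 and 3 counts in WT and 2, 1 and 1 counts in KO, at or under the floor of 3 counts that was set as the limit of detection, so no fold change is given and it was not tested. A difference in Fosb was not detectable at this depth.

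Jun and Junb encode the partners of FOS in AP-1, and neither separated the genotypes. Jun (ENSMUSG00000052684, chr4:94937271-94940459, minus strand) had 1196, 2428 and 1610 counts in WT, or 48.5, 75.6 and 53.0 CPM, and 1760, 1119 and 1466 counts in KO, or 70.9, 45.6 and 54.8 CPM. The highest and the lowest library were WT replicate 2 and KO replicate 2, and the groups overlapped throughout. Its log2 fold change was -0.048 (SE 0.20, 95% interval -0.49 to 0.40, adjusted p = 0.956 in edgeR), so a change in Jun as large as the point estimate of Fos lies outside its interval. Jun shares 232 exon bases with the antisense gene Junos, whose log2 fold change was 0.31, and no strand setting is given in the sources used here, so reads over those bases cannot be told apart.

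Junb (ENSMUSG00000052837, chr8:85701113-85705347, minus strand) had 147, 140 and 156 counts in WT, or 5.96, 4.36 and 5.14 CPM, and 151, 111 and 97 counts in KO, or 6.08, 4.53 and 3.63 CPM. KO held both the highest and the lowest library. The log2 fold change was -0.12 (SE 0.21, 95% interval -0.58 to 0.35, adjusted p = 0.887 in edgeR). Junb shares 173 exon bases with Prdx2 on the other strand, a peroxidase gene with a log2 fold change of -0.17.

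Atf3, a stress-induced factor that pairs with JUN proteins and often represses its targets, was the most variable of the genes. It lies at chr1:190902493-190950236 on the minus strand (ENSMUSG00000026628). It had 140, 329 and 160 counts in WT, or 5.68, 10.2 and 5.27 CPM, and 231, 57 and 470 counts in KO, or 9.31, 2.32 and 17.6 CPM. The 3 KO libraries thus covered more than the whole WT range, from a low in KO replicate 2 to a high in KO replicate 3 that was 7.57 times as large. The mean was 7.06 ± 2.76 CPM in WT and 9.74 ± 7.64 CPM in KO (SD, n = 3 each), and the log2 fold change of 0.46 (SE 0.78, 95% interval -1.63 to 2.55, adjusted p = 0.884 in edgeR) was smaller than its error. Its sign rested on 1 library: without KO replicate 3 the log2 fold change was -0.28, and without KO replicate 2 it was 0.93.

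Egr1, a zinc finger factor induced through SRF and MAP kinase signaling, varied most within WT. It lies at chr18:34992876-34998037 on the plus strand (ENSMUSG00000038418). It had 122, 43 and 175 counts in WT, or 4.95, 1.34 and 5.76 CPM, and 111, 74 and 75 counts in KO, or 4.47, 3.02 and 2.81 CPM. WT held the highest library and, in replicate 2, the lowest, so that the WT libraries differed by 4.31 times and enclosed all of KO. The log2 fold change was -0.22 (SE 0.53, 95% interval -1.50 to 1.06, adjusted p = 0.919 in edgeR). Without WT replicate 2 the log2 fold change was -0.64 and Egr1 met the DEG rule, and without WT replicate 3 it was 0.15.

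Nr4a1, an orphan nuclear receptor that is induced by contraction and regulates glucose genes in muscle, lies at chr15:101152150-101172676 on the plus strand (ENSMUSG00000023034). It had 843, 1100 and 1189 counts in WT, or 34.2, 34.2 and 39.2 CPM, and 842, 738 and 1197 counts in KO, or 33.9, 30.1 and 44.8 CPM. KO held both extremes, and the means of 35.9 ± 2.85 CPM and 36.3 ± 7.62 CPM (SD, n = 3 each) were nearly equal. Its log2 fold change of 0.016 (SE 0.16, adjusted p = 0.979 in edgeR) had the narrowest 95% interval of the 9 genes, -0.32 to 0.35, which leaves out a change of the size seen in Fos.

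Ier2, which encodes a small nuclear protein, had low and even levels. At chr8:85387960-85389483 on the minus strand (ENSMUSG00000053560), it had 44, 36 and 48 counts in WT, or 1.79, 1.12 and 1.58 CPM, and 33, 29 and 34 counts in KO, or 1.33, 1.18 and 1.27 CPM. WT replicates 1 and 3 were above all KO libraries and WT replicate 2 below them. The log2 fold change was -0.24 (SE 0.29, 95% interval -0.87 to 0.40, adjusted p = 0.814 in edgeR). It was -0.0965 without WT replicate 1 and -0.41 without WT replicate 2.

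Btg2, an antiproliferative gene that also promotes removal of the poly(A) tail of mRNAs, lies at chr1:134002908-134006858 on the minus strand (ENSMUSG00000020423). It had 193, 353 and 250 counts in WT, or 7.83, 10.99 and 8.23 CPM, and 173, 152 and 222 counts in KO, or 6.97, 6.20 and 8.30 CPM. Only KO replicate 3 reached into the WT range, just above WT replicates 1 and 3. The mean was 9.02 ± 1.72 CPM in WT and 7.16 ± 1.07 CPM in KO (SD, n = 3 each), and the log2 fold change was -0.33 (SE 0.17, 95% interval -0.71 to 0.045) with an unadjusted p of 0.0788 and an adjusted p of 0.563 in edgeR. Without WT replicate 2, its highest library, the log2 fold change was -0.16.

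Myc, which drives cell growth and ribosome production, lies at chr15:61857240-61862223 on the plus strand (ENSMUSG00000022346). It had 57, 141 and 62 counts in WT, or 2.31, 4.39 and 2.04 CPM, and 53, 51 and 45 counts in KO, or 2.13, 2.08 and 1.68 CPM. WT replicate 2 was far above the other 5 libraries, and the WT mean of 2.91 ± 1.28 CPM against 1.97 ± 0.246 CPM in KO (SD, n = 3 each) came mostly from it. The log2 fold change was -0.57 (SE 0.30, 95% interval -1.23 to 0.077, adjusted p = 0.563 in edgeR), and without WT replicate 2 it was -0.14. Without WT replicate 3 it was -0.78, and Myc then met the DEG rule.

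Across the 9 tested genes, 1 met the DEG rule as lower in KO and 0 met it as higher, beside the 5.35% of all tested genes that met it. The log2 fold change was under 0 for 7 of the 9, all but Atf3 and Nr4a1, where it was under 0 for 50.6% of all tested genes. Their median log2 fold change was -0.22, and that of all tested genes was -0.0042. Fos was the 1 gene whose libraries lay wholly lower in KO, an arrangement found in 7.87% of all tested genes, and 0 of the 9 lay wholly higher in KO, which 7.53% of all tested genes did. The intervals in the plot of fold changes show that, apart from Fos, each gene's interval included no change.

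**Figure D2:**
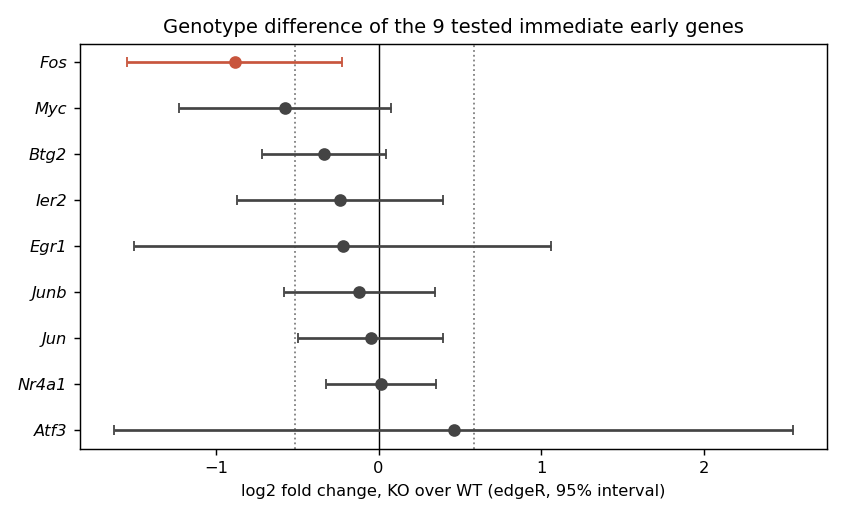
Log2 fold change of KO over WT from edgeR for the 9 tested genes (points) with its 95% interval (bars). Dotted lines mark fold changes of 0.7 and 1.5, and Fos, in red, is the gene whose interval lies wholly below 0.

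The genes were not high in the same libraries. Each gene was centred on its own mean log2 CPM over the 6 libraries, so that the values say how far a library lies from that gene's usual level. Fos, Egr1, Junb and Ier2 were above their means in WT replicates 1 and 3 and below them in WT replicate 2. Jun, Btg2, Myc and Atf3 were above theirs in WT replicate 2, by 0.41 to 0.91 on the log2 scale, and Nr4a1 deviated from its mean by at most 0.32. In KO replicate 2 all 9 genes were below their own means, where 47.8% of all tested genes were, and the average deviation of the 9 was -0.38. Atf3 alone deviated by -1.57 there, and the average of the other 8 was -0.23, close to their -0.21 in KO replicate 3. In the other libraries 3 to 6 of the 9 were below. KO replicate 2 held the lowest value of 4 of the genes, KO replicate 3 of 3 and WT replicate 2 of the other 2. Among 53 other rapidly induced genes 30 were below their means in KO replicate 2, and 17 to 35 in the other libraries. The level of KO replicate 2 was noticed after the values had been seen.

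**Figure D3:**
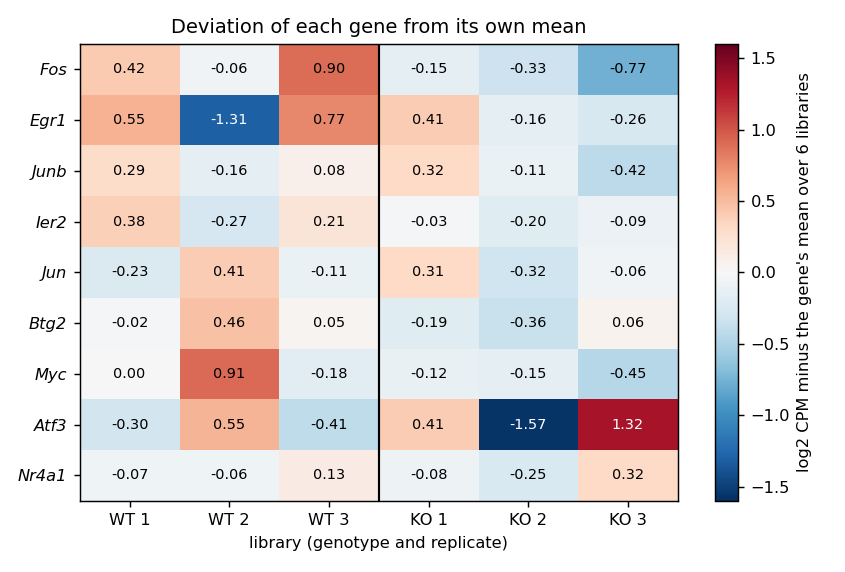
Log2 CPM of each of the 9 tested genes minus that gene's mean over the 6 libraries, by library (columns, WT left of the line and KO right), with red above and blue below the mean. The column of KO replicate 2 is blue throughout, and the largest deviations are those of Atf3 in KO replicates 2 and 3 and Egr1 in WT replicate 2.

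Closeness to the average centred profile of the 9 genes was measured as the root mean square difference over the 6 libraries, for 15614 other tested genes. The 9 genes were not high in the same libraries, and their average ran only from -0.38 in KO replicate 2 to 0.16 in WT replicate 3. Closeness to it is therefore not likeness to any single immediate early gene. The closest were Tbc1d20 (0.0356), Ppp2ca (0.0406), Trp53bp1 (0.0433), Rpn1 (0.0461) and 1110002E22Rik (0.0479). None of these is among the rapid response genes listed for comparison. As many as 1064 genes lay within 0.15 of the profile, so many genes are nearly as close.

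The spread between libraries of one genotype was measured by edgeR's biological coefficient of variation (BCV), the relative variation left once counting error is taken out. Atf3 had a BCV of 0.646, 3.94 times the trend for genes of its level, and Egr1 had 0.438, 2.13 times the trend. The other 7 lay near the trend, with Jun at 0.186 and Fos at 0.251. Of the 9 genes 7 were above the trend, most of them only slightly, and the median ratio to the trend was 1.01. Over the 53 other rapid response genes the largest ratio, 3.97, was that of Cebpd, a stress-induced transcription factor gene singled out here after its value was seen.

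**Figure D4:**
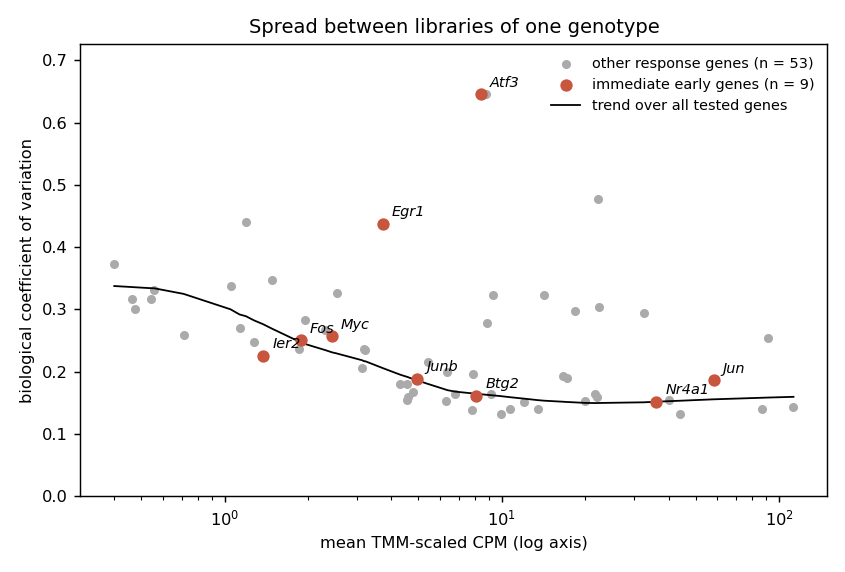
Biological coefficient of variation from edgeR (vertical axis, starting at 0) against mean TMM-scaled CPM (log axis) for the 9 tested immediate early genes (red), 53 other rapid response genes (grey) and the trend over all tested genes (line). Atf3 and Egr1 stand well above the line, and the other 7 genes lie close to it.

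The relatives of the immediate early genes were examined next. Of the other AP-1 genes, 4 of 5 were tested (Batf was not) and 0 met the DEG rule, with a median log2 fold change of -0.14. The smallest p-values in that group were those of Maff, a small MAF factor, at -0.39 (unadjusted p = 0.199) and Jund, a JUN partner present at rest, at -0.24 (unadjusted p = 0.216), both from edgeR. Of the other EGR and NR4A genes and the NAB genes, whose products repress EGR factors, 4 of 7 were tested and 0 met the rule, with a median of -0.057. Nab1 had 5.41 ± 0.791 CPM in WT and 7.19 ± 0.778 CPM in KO (SD, n = 3 each). Its log2 fold change was 0.41 with an unadjusted p of 0.0301 and an adjusted p of 0.461 in edgeR, and Nab2 had -0.42 (unadjusted p = 0.205). Egr2, Egr3 and Egr4 had too few counts to be tested. Of the 4 other BTG and TOB genes, the antiproliferative family of Btg2, 0 met the rule and the median was -0.034. The smallest p-values there were those of Tob2 at 0.29 (unadjusted p = 0.431) and Btg1 at -0.11 (unadjusted p = 0.460), both from edgeR.

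Among 45 further genes that respond quickly to stimuli, 41 were tested, 2 met the DEG rule as lower in KO and 0 as higher. Over all tested genes 3.14% met it as lower and 5.35% in either direction, so 2 of 41 lies near the share of all genes. Sik1, a CREB-induced kinase that restrains CREB coactivators, had 5.16 ± 0.885 CPM in WT and 3.44 ± 0.591 CPM in KO (SD, n = 3 each). Its 3 KO libraries all lay below WT, as did those of 7.87% of all tested genes. Its log2 fold change was -0.58 (SE 0.20, unadjusted p = 0.0143, adjusted p = 0.390 in edgeR). Socs3, a cytokine-induced inhibitor of JAK and STAT signaling, had 1.41 ± 0.576 CPM in WT and 0.693 ± 0.323 CPM in KO with overlapping libraries, and a log2 fold change of -1.02 (SE 0.44, unadjusted p = 0.0378, adjusted p = 0.484 in edgeR). Taking these 4 groups together, 53 of 61 genes were tested, 25 were lower in KO and the median log2 fold change was 0.011. Over all tested genes 50.6% were lower in KO. Socs3 and Sik1, like Fos, are also in the study's own list of DEGs, so their inclusion is not independent of their direction.

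Genes that act above or beside the immediate early genes did not meet the DEG rule in any of 3 further groups. Of 21 SRF, CREB and MAP kinase genes, which carry the signal to immediate early promoters, 0 met it and the median log2 fold change was 0.053. Mapk3, the gene of the kinase ERK1, had 0.45 (unadjusted p = 0.0151) and Atf1, a relative of CREB, had -0.39 (unadjusted p = 0.0234) in edgeR. Of 11 genes of the MYC and MAX network 9 were tested, 0 met the rule and the median was 0.066. Mga, a MAX partner that represses MYC targets, had 0.45 (unadjusted p = 0.0061) and Mxi1, a MYC antagonist, had 0.37 (unadjusted p = 0.0399) in edgeR. Of 8 ATF4 pathway genes, the stress pathway that induces Atf3, 0 met the rule and the median was 0.079. The smallest p-values there were those of Trib3, a pseudokinase, at -1.15 (unadjusted p = 0.0585) and Eif2ak3, the gene of the kinase PERK, at 0.54 (unadjusted p = 0.0586) in edgeR. For Trib3, WT replicate 1 stood apart with 3.29 CPM, against 0.84 and 0.92 CPM in the other WT libraries and 0.61 to 0.90 CPM in KO.

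The 3′ untranslated regions of the immediate early genes were rich in the AU-rich pentamer ATTTA, a motif that marks short-lived mRNAs. Counted on the longest coding transcript of each gene in GENCODE M21, the median was 2.885 pentamers per kilobase for the 10 genes and 1.29 over 12127 tested genes, and 8 of the 10 were above that median. Nr4a1 had 5.52, Fos 4.91, Myc 4.52 and Junb 4.12 per kilobase, while Fosb had 0.466 and Ier2 had 0. The longer form TATTTAT was present in 5 of the 10, Fos, Fosb, Jun, Atf3 and Btg2, and in 30.1% of the tested genes. Fos held 2 copies and the others 1 each. The log2 fold changes of the 4 genes with the most pentamers per kilobase were 0.016 for Nr4a1, -0.88 for Fos, -0.57 for Myc and -0.12 for Junb.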

How the data were processed

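RNA from TA muscle of 3 WT and 3 SELENOW KO mice was sequenced by the authors as paired-end reads from NEBNext Ultra libraries, aligned with HISAT2 and counted per gene with featureCounts. The authors deposited one table of raw counts, without normalization, with a column of gene lengths. The methods name GRCm38 and the submitters' processing notes name GRCm39. Of 52083 genes matched by identifier to GENCODE M21 (GRCm38), 1494 had the same start and end in the deposited table, and 0 of the 10 immediate early genes did, so positions are given as deposited, in GRCm39. Promoters come from RefSeq (GRCm38.p6). Strand handling and the treatment of reads that map to several places are not given in the sources used here.

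Groups and replicate numbers came from the labels. The first WT column has no number and was taken as replicate 1, since the other columns name 2 and 3.

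Genes were kept with filterByExpr, scaled by TMM and compared by edgeR's quasi-likelihood test with robust estimation (version 4.0.16, limma 3.58.1, R 4.3.3), with Benjamini-Hochberg adjustment over 15623 genes and all 6 libraries in the fit. Log2 CPM used a prior count of 1. Total counts were 25351976 to 29111213 per library, and the floor of 3 counts was 0.0934 to 0.122 CPM, which covers counting error only. Chi-square tests between replicates of a genotype gave 21.0 to 79.3 per degree of freedom, far above the 1 of sampling noise. The steps were tested on simulated data. Figures were drawn with matplotlib (version 3.10.9).

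The genes and the comparison lists were chosen with earlier results of these data known. All 10 genes were to be named, with the genes of each other pathway list that met the DEG rule or, where there was none, the 2 with the smallest p, and the 5 genes most like the average profile. Junos, Prdx2, Cebpd and the individual cell type markers fall outside this rule and were named after their values were seen. Where a symbol had 2 identifiers (Ddit3), the one with more counts was used. Alternatives were DESeq2 (version 1.42.0), edgeR with DESeq2's size factors, all genes without a filter, a minimum of 10 counts per library, no robust estimation, the replicate number as a block, leaving out mitochondrially encoded genes, and leaving out each library.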

Additional observations from a re-analysis of the deposited data

How the results depend on the processing

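The number of immediate early genes that met the DEG rule was 1 in edgeR, 2 with no filter on low counts (Fos and Myc) and 0 to 2 when a library was left out: 0 without KO replicate 3 and 2 without WT replicate 2. The count was 1 without WT replicate 3, when Myc met the rule and Fos did not. No adjusted p was under 0.05 for any of these genes under any alternative. With the other alternatives that kept all 6 libraries Fos met the rule each time. The median log2 fold change was -0.22, -0.137 with the replicate block and -0.31 to -0.0965 when a library was left out, and 6 to 8 of the 9 genes had a log2 fold change under 0. The sign of Nr4a1 changed with the replicate block (-0.000904), and leaving out a library changed that of Nr4a1 (-0.163 to 0.137), Jun (-0.228 to 0.173), Egr1 (-0.642 to 0.147), Junb (-0.331 to 0.0465) and Atf3 (-0.284 to 0.927); the cause was not tested. The others kept their sign, with Fos at -1.09 to -0.605, Myc at -0.781 to -0.143, Btg2 at -0.454 to -0.162 and Ier2 at -0.409 to -0.0965. The number of other pathway genes that met the rule was 2, with 1 at a minimum of 10 counts in every library and 1 to 8 when a library was left out (8 without WT replicate 2, 5 without WT replicate 3, 4 without KO replicate 1 and 1 without KO replicate 2). Over all genes 836 met the rule, and 1780 with no filter, when 31780 genes were tested. The calls at an adjusted p under 0.05, 0 in edgeR, numbered 45 in DESeq2, 363 with no filter, 16 without KO replicate 1 and 242 without KO replicate 2. The deviations of libraries with the same replicate number had correlations of 0.0596, 0.044 and -0.0736, and pairs with different numbers had -0.14 to 0.0925. Each deviation was taken from the mean of 3 libraries of its genotype, so these values cannot show whether libraries shared a batch. With the replicate block 890 genes met the rule, and Fos was again the 1 immediate early gene that did. With 1 to 3 counts per library, counting error limits Fosb. Fos had 27 to 100 counts per library, and beyond counting error it also had a BCV of 0.251 between libraries of one genotype.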
